A study of Homo sapiens with 2 samples.

Results

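Heat shock proteins and their DNAJ co-chaperones were examined in 1 Seg-1 culture that received FGF-AS siRNA and 1 that received negative control siRNA. The genes were chosen by name: symbols beginning with DNAJA, DNAJB, DNAJC, HSPA or HSPB and a digit, or with HSPH1, HSP90, HSPD1 or HSPE1, on probe sets annotated to exactly 1 symbol. This gave 171 probe sets for 72 genes, of 41091 single-symbol probe sets for 19775 genes on the array. Of these genes, 43 were DNAJ genes, 24 were heat shock protein genes and 5 were RNA genes that carry such a symbol.

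RNA was hybridised to U133 Plus 2.0 oligonucleotide arrays from Affymetrix, 1 array per group, on which a probe set is a group of short probes for 1 transcript. Seg-1 was once taken to come from the esophagus and is, per the labels, identical to the lung cancer line H460. The FGF-AS siRNA was directed against the antisense RNA of the FGF2 locus, and the control siRNA matched no known gene. Both cultures were reverse transfected with RNAiMAX at siRNA concentrations between 25 and 200 nM and harvested after 72 hours. The concentration used for each culture was not stated in the labels. No untransfected culture was analysed here, so a response common to both transfections would not show.

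Chaperones of the HSP70 family bind unfolded stretches of protein in cycles of ATP binding and hydrolysis. J-domain proteins of the DNAJ families bring substrates and stimulate that hydrolysis, and exchange factors such as HSP110 reset the cycle. HSP90 acts later on near-native clients such as kinases and receptors, HSP60 with HSP10 forms a folding chamber in mitochondria, and small heat shock proteins hold unfolded proteins without using ATP. Cytosolic members are induced through the factor HSF1, and members of the endoplasmic reticulum (ER) through the unfolded protein response.

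With 1 array per group, none of the differences could be set against replicate arrays, and no p-values were computed. Values are probe set signals on a linear scale, and each gene was represented by its brightest probe set. The log2 ratio is FGF-AS siRNA over control siRNA after 6.1 was added to each signal, an offset that understates the difference of dim genes. A gene counted as measured at a mean signal of at least 23.9, which 60 of the 72 genes and 12352 of all 19775 genes reached. Probe sets of the same gene gave the only available error: the log2 ratio of 1 probe set varied around that of its gene with an SD of 0.40 over 40 chaperone genes with several measured probe sets, against 0.49 over 6155 genes in all. It covers neither cultures nor hybridisations. Among brighter probe sets, those with a mean signal of at least 145.2, the SD was 0.41 over 29 chaperone genes and 0.36 over 3050 genes.

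Signals ran up to 20791.3 on the FGF-AS siRNA array and 21359.6 on the control array, with medians of 23.1 and 25.5. NUDT6, the gene of the targeted antisense RNA, read 104.5 with FGF-AS siRNA and 376.9 with control siRNA on its brighter probe set, 27.7% of control. The epithelial keratin KRT18 read 9327.2 and 10152.5, while the lung lineage factor NKX2-1 read 11.8 and 24.9, below the minimum, as did the club cell marker SCGB1A1 at 5.7 and 20. The epithelial cadherin CDH1 was also below the minimum, at 18.4 with FGF-AS siRNA and 0.9 with control siRNA, and so was the pan-leukocyte marker PTPRC, at 19 and 0.5. Of 5 markers each, 4 were measured for epithelium, 3 for lung epithelium (median log2 ratio 0.40), 3 for fibroblasts (-0.39) and 2 for leukocytes. The measured markers furthest from 0 were the surfactant gene SFTPC, at 59.1 with FGF-AS siRNA and 14.7 with control siRNA (log2 ratio 1.65), and the fibroblast collagen COL3A1, at 104.6 and 316.4 (-1.54, and up to -0.91 on its other probe sets). The 2 leukocyte markers went opposite ways, CD14 at 16.8 and 38.3 (-0.96) and CD3E at 52.7 and 33.5 (0.57). SFTPC read under the minimum with control siRNA, and CD14 read under it with FGF-AS siRNA. Each counted as measured only through the array on which it was high, and both are in the counts above. The part of these markers in the chaperone values was not tested. In RNA of a whole culture, fewer cells of a kind and less RNA per cell cannot be told apart.

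Most chaperone genes lay within 1.5-fold between the 2 arrays, as did most measured genes. The SD of the log2 ratios was 0.48 both across the chaperone genes and across all measured genes. At a mean signal of at least 145.2 it was 0.47 and 0.38. Over the 60 measured genes the median log2 ratio was 0.02, against -0.02 over all measured genes, and 31 were above 0 and 29 below. Among all measured genes 48.1% were above 0. Of the 60 genes, 49 lay within 1.5-fold (81.7%, against 82.5% of all measured genes). No chaperone gene was at least 2-fold higher, where 2.05% of all measured genes were, and 2 (3.33%) were at least 2-fold lower, where 2.72% were. These 2 were DNAJC3 and the RNA gene DNAJC3-DT. Of the 58 measured members that are not RNA genes, 1 was at least 2-fold lower. At least 1.5-fold higher were 3 genes (5.00%, background 7.96%), and at least 1.5-fold lower were 8 (13.3%, background 9.52%). HSPB3 among the 3, and DNAJC5B and DNAJC3-DT among the 8, read under the minimum on 1 array. They counted as measured only through the array on which they were high. This split of 3 and 8 became 4 and 6 under median centring and 5 and 7 under quantile normalization. The median over all measured genes moved as well, to 0.04 and 0.06. No share of all genes past 1.5-fold is given for these 2 settings. At the brighter minimum of 145.2, which 43 chaperone genes reached, none was 2-fold higher (background 0.985%) and 1 (2.33%) was 2-fold lower (background 1.11%). There, 1 gene (2.33%) lay past 1.5-fold on the higher side and 6 (14.0%) on the lower side, where the background was 5.75% in either direction. The 6 lower genes were DNAJC3, HSPA4L, HSPA13, DNAJB4, DNAJB6 and HSPB8, of which HSPA4L and HSPA13 had a second probe set that pointed the other way. DNAJC3 had 1 probe set near 0 (-0.07). For DNAJB6, 2 brighter probe sets shared with a second symbol gave -0.04 and -0.48, both within 1.5-fold. No test of these shares was made.

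**Figure D1:**
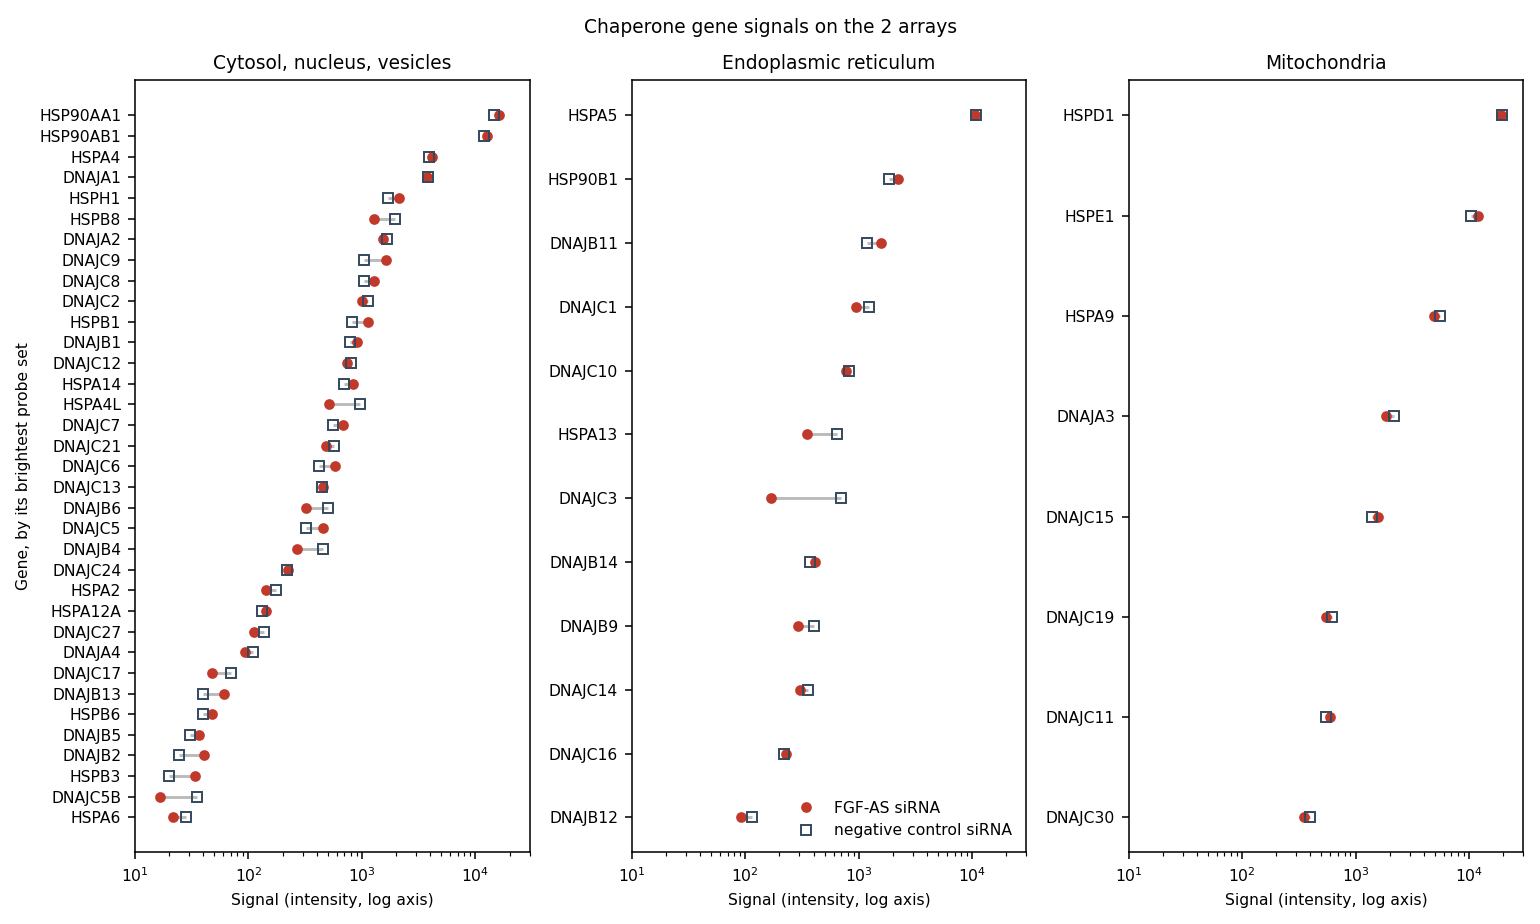
Signal of the brightest probe set of each measured chaperone gene on the FGF-AS siRNA array (filled circles) and the negative control siRNA array (open squares), on a log axis, in 3 panels by compartment. Most pairs of symbols touch, and DNAJC3 in the ER panel, at 167.1 and 699.5, has the widest gap.

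The abundant chaperones of the cytosol showed small differences. HSP90AA1, the stress-inducible cytosolic HSP90, read 16121 with FGF-AS siRNA and 14570.4 with control siRNA, a log2 ratio of 0.15, and all 4 of its probe sets were higher, at log2 ratios from 0.15 to 0.36. HSP90AB1, the constitutive form, read 12691.8 and 11830.1 (log2 ratio 0.10), and its 2 other probe sets gave 0.02 and -0.36. Both genes read near the top of the range on both arrays.

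In the cytosolic HSP70 and HSP110 group, HSPA4, an HSP110 exchange factor, read 4129.7 with FGF-AS siRNA and 3924.7 with control siRNA on its brightest probe set (log2 ratio 0.07). Its 3 other probe sets ran from -0.90 to 0.00, so its probe sets did not give a single answer. HSPH1, the stress-inducible HSP110, read 2100.1 and 1689.3 (0.31), with 0.10 and -0.18 on its dimmer probe sets. HSPA14, a ribosome-associated HSP70, read 840.9 and 700.7 (0.26), with 0.38 and -0.41 on the others. HSPA2, an HSP70 best known from the testis, read 143.1 and 174 (-0.27), and the dim HSPA12A, a distant HSP70 relative, read 142.3 and 131.1 (0.11). HSPA6, a strictly stress-induced HSP70, reached the minimum by its mean but read under it with FGF-AS siRNA, at 21.7 against 28.1 with control siRNA (-0.30). None of these 6 genes reached 1.5-fold on its brightest probe set.

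HSPA4L, a further HSP110 gene, had probe sets that disagreed. Its brightest (205543_at) read 509.4 with FGF-AS siRNA and 954.6 with control siRNA, a log2 ratio of -0.90. The other (1556194_a_at) read 480.3 and 311, a log2 ratio of 0.62. HSPA4L was the only one of 40 chaperone genes with measured probe sets past 1.5-fold in opposite directions. Over all genes with several measured probe sets 2.96% were. No direction can be given for this gene.

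Probe sets for the best-known cytosolic HSP70 genes carry several gene symbols on this array and fall outside the rule. HSPA8, the constitutive HSP70, shares 4 probe sets with small nucleolar RNAs of its introns, and their log2 ratios ran from -0.10 to 0.09, with signals between 15087.4 and 17886.2 with FGF-AS siRNA and between 15342 and 19224.6 with control siRNA. The 3 probe sets of HSPA1A and HSPA1B, the stress-inducible HSP70 pair with near-identical sequence, were all lower by small amounts, at -0.21, -0.23 and -0.33. The brightest of them read 2828.3 with FGF-AS siRNA and 3263.4 with control siRNA. In all, 14 probe sets with several symbols held a symbol of the family, and all 14 reached the minimum.

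Among the cytosolic J-domain proteins, DNAJB4, a stress-induced relative of DNAJB1, was lower on both of its probe sets. It read 267.8 with FGF-AS siRNA and 455.9 with control siRNA on one (log2 ratio -0.75), and 181.8 and 316 on the other (-0.78). DNAJB6, a suppressor of amyloid and polyglutamine aggregation, read 321.6 and 499.5 (-0.63). Its 2 other probe sets are shared with a second symbol and were brighter. They read 612.6 and 629.1 (-0.04), and 566.6 and 791.5 (-0.48). DNAJC5B, a vesicle J-protein related to the synaptic protein DNAJC5, had a log2 ratio of -0.87 but was dim, at 16.6 and 35.5, and read under the minimum with FGF-AS siRNA.

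DNAJC9, a nuclear J-protein that handles histones H3 and H4, was the 1 gene at least 1.5-fold higher that also reached the brighter minimum. It read 1619.4 with FGF-AS siRNA and 1044 with control siRNA, a log2 ratio of 0.63 (1.55-fold). Its 2 other probe sets agreed in direction, at 628.6 against 415.1 (0.59) and at 31.6 against 17.8 (0.66). DNAJC9, DNAJB4 and the small heat shock gene HSPB8 were the 3 of 40 chaperone genes whose several measured probe sets all lay past 1.5-fold in 1 direction. Over all genes with several measured probe sets 3.75% did so. A dim probe set of HSPB8 read under the minimum with FGF-AS siRNA (17.1) and the dimmest of DNAJC9 read under it with control siRNA (17.8), so each counted as measured only through the array on which it was high. Both probe sets of DNAJB4 were above the minimum on both arrays.

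The DNAJA genes and several further J-proteins lay within 1.5-fold on their brightest probe sets. DNAJA1, the main cytosolic partner of HSP70 in protein refolding and import, read 3748.8 with FGF-AS siRNA and 3799.8 with control siRNA (-0.02). DNAJB1, the classical HSP40 and a heat shock target, read 912 and 791 (0.20), with -0.11 on its other probe set. DNAJA2 stood at -0.13, DNAJA4 at -0.20, and with the mitochondrial DNAJA3 all 4 DNAJA genes were slightly below 0, but DNAJA1 turned to 0.04 under median centring. The ribosome-bound DNAJC2 stood at -0.19 and DNAJC21, which acts in maturation of the large ribosomal subunit, at -0.23 with its 4 other measured probe sets between -0.73 and -0.16. DNAJC7, a bridge between HSP70 and HSP90, stood at 0.29, with -0.50 on a dim probe set.

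J-proteins of vesicles and of the nucleus were mixed. DNAJC6, the clathrin-uncoating factor auxilin, read 577.1 with FGF-AS siRNA and 416.1 with control siRNA (0.47). DNAJC5, the cysteine string protein of vesicles, read 454.2 and 318.9 on its brightest probe set (0.50), but 0.03 and -0.56 on the others. DNAJC13, an endosome protein, stood at 0.02. The splicing-associated DNAJC8 read 1266.7 and 1042.8 (0.28), with 0.21 and -0.62 on dimmer probe sets, and DNAJC17, also linked to splicing, read 47.9 and 69.5 (-0.49). DNAJC12, a partner of the aromatic amino acid hydroxylases, stood at -0.12, with -0.47 and -0.77 on its other probe sets, so all 3 were below 0. DNAJC27, a small GTPase with a J domain, was likewise below 0 on all 3 measured probe sets, from -0.48 to -0.30, and DNAJC24, a factor of diphthamide synthesis, stood at 0.03. The dimmest of the DNAJC27 probe sets read under the minimum with FGF-AS siRNA (21.2). Of all 23222 measured single-symbol probe sets, 13164 were below 0 and 10042 above. Of the dim members, DNAJB2 read 40.8 and 24.4 (0.62), the ciliary DNAJB13 read 61 and 39.7 (0.55), and DNAJB5 read 36.8 and 30.4 (0.23).

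Small heat shock proteins went both ways. HSPB8, which works with BAG3 in selective autophagy, read 1270 with FGF-AS siRNA and 1950.9 with control siRNA (log2 ratio -0.62), and its dim probe set read 17.1 and 46.3 (-1.18). HSPB1, known as HSP27, read 1132.5 and 821 (0.46) on its single probe set. BAG3 itself read 1606.8 and 1437.7 (0.16). HSPB3 and HSPB6, which are muscle-enriched, were dim, at 34.1 against 19.9 (0.63) and 48 against 40.1 (0.23), and HSPB3 read under the minimum with control siRNA. Over the 35 measured genes of the cytosol, nucleus and vesicles the median was 0.07, with 20 above and 15 below 0, and none reached 2-fold.

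The heat shock element (HSE), the binding motif of heat shock factors, was looked for in the 300 bases from 250 before to 50 after each start site (RefSeq, GRCh38.p14), which were held for 65 of the 72 genes. The motif searched was GAANNTTCNNGAA on both strands, which overlaps no other motif searched here. It was found in promoters of 6 of these 65 chaperone genes (9.23%), against 0.61% of all 27305 genes with a promoter entry. Counted by promoter, 0.49% of all 35116 held it. These 6 stretches are shown because they carry the motif through which heat shock genes are induced, with the motif in capitals, both strands of it included, and overlapping matches merged.
HSP90AA1, chr14:102087100-102087152, - strand: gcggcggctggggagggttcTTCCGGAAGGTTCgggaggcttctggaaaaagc
HSP90AB1, chr6:44247758-44247863, + strand: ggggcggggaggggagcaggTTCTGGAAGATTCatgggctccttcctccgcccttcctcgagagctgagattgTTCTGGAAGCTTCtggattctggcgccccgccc
HSPD1, chr2:197500048-197500090, - strand: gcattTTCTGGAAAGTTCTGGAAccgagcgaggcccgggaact
DNAJA1, chr9:33025256-33025308, + strand: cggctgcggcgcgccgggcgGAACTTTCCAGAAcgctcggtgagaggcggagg
DNAJB6, chr7:157336853-157336905, + strand: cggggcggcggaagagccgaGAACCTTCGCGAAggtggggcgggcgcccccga
HSPA6, chr1:161524446-161524498, + strand: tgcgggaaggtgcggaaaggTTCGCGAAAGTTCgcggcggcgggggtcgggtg

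The 6 genes that hold the motif had a median log2 ratio of -0.02, and the 49 measured genes with a promoter entry and no match had a median of 0.07. HSP90AB1 holds the motif at 2 places, from 165 and from 112 bases before the start. The 6 ran from -0.63 for DNAJB6 to 0.15 for HSP90AA1, and DNAJB6 was the only one past 1.5-fold. A match is a string of letters and was not tested as a binding site. HSF1, the factor that binds such elements, read 245.7 with FGF-AS siRNA and 298.2 with control siRNA (-0.27), with -0.78 on its other probe set. HSBP1, a small protein that binds HSF1, read 2339 and 2803.3 (-0.26).

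The ER held the member that differed most. DNAJC3, also known as P58IPK, is an ER co-chaperone of the HSP70 BiP and an inhibitor of the kinase PERK. Its brightest probe set (1558080_s_at) read 167.1 with FGF-AS siRNA and 699.5 with control siRNA, 4.07-fold lower with a log2 ratio of -2.03. A second probe set (235341_at) read 78 and 343.2 (-2.05), and another (208499_s_at) read 95.4 and 205 (-1.06). The last (225284_at) read 383.2 and 401.5, a log2 ratio of -0.07. Hence 3 probe sets were at least 2-fold lower and 1 was nearly equal, and the mean over the 4 was -1.30. DNAJC3 ranked 33rd lowest of the 12352 measured genes on its brightest probe set.

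**Figure D2:**
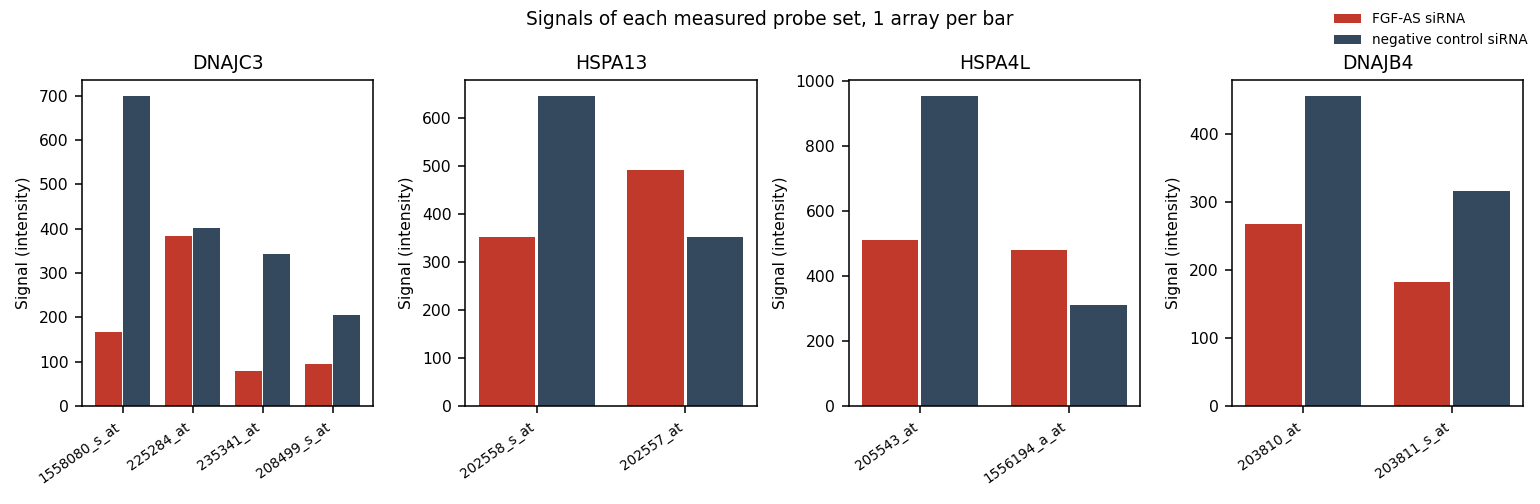
Signals of every measured probe set of DNAJC3, HSPA13, HSPA4L and DNAJB4, with FGF-AS siRNA (left bar) and negative control siRNA (right bar), 1 array per bar. For DNAJC3, 225284_at has bars of nearly equal height (383.2 and 401.5) and the other 3 probe sets have lower left bars, for DNAJB4 both left bars are lower, and the 2 probe sets of HSPA13 and of HSPA4L point in opposite directions.

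The RNA gene DNAJC3-DT starts on the opposite strand, 214 bases from the DNAJC3 start on chromosome 13. Its brighter probe set read 16.2 with FGF-AS siRNA and 42.1 with control siRNA, a log2 ratio of -1.11, and it is the second member at least 2-fold lower. It was dim, and it read under the minimum with FGF-AS siRNA. The other probe set, at 2.1 and 0.8, was not measured.

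The rest of the ER chaperones did not share the size of the DNAJC3 difference. HSPA5, which encodes BiP, read 10579.3 with FGF-AS siRNA and 10682.2 with control siRNA (log2 ratio -0.01, and -0.09 on its other probe set). HSP90B1, the ER form of HSP90 known as GRP94, read 2207.1 and 1842.9 (0.26), with -0.42 on a dim probe set. Its 2 probe sets shared with a microRNA symbol gave 0.44 and -0.05. DNAJB11, a soluble ER J-protein that works with BiP, read 1582.8 and 1178.3 (0.42) on its only probe set.

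DNAJB9, which binds and restrains the ER stress sensor IRE1, was lower on all 3 probe sets. They read 290 with FGF-AS siRNA against 406.5 with control siRNA (-0.48), 203.6 against 353.6 (-0.78), and 68.4 against 120.8 (-0.77). DNAJB12, a membrane J-protein of ER-associated degradation, was below 0 on all 4 measured probe sets, from -0.83 to -0.29, with 92.3 and 114.1 on the brightest. The lowest ratio came from a dim probe set that read under the minimum with FGF-AS siRNA (23.4). The partner of DNAJB12, DNAJB14, read 407.6 and 369.3 (0.14) on the brightest, but -0.36 and -0.69 on the others. Of all 23222 measured single-symbol probe sets, 13164 were below 0 and 10042 above.

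HSPA13, an HSP70-like ATPase of the ER, had a log2 ratio of -0.86 on its brightest probe set (352.2 with FGF-AS siRNA, 645.4 with control siRNA) and of 0.47 on the other (490.4 and 351.8), so no direction can be given. DNAJC1, a membrane J-protein, stood at -0.37, with -0.36 and -0.00 on the others. The ER reductase DNAJC10 read 764.3 and 823.2 (-0.11) and lay between -0.50 and -0.00 on its 3 other measured probe sets. DNAJC14, which takes part in receptor export, stood at -0.23 and -0.13, and DNAJC16 at 0.07 and 0.31. Over the 12 ER genes the median was -0.17, with 4 above and 8 below 0, and DNAJC3 was the only one past 2-fold. Among all measured genes 48.1% were above 0 and 2.72% were at least 2-fold lower.

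**Figure D3:**
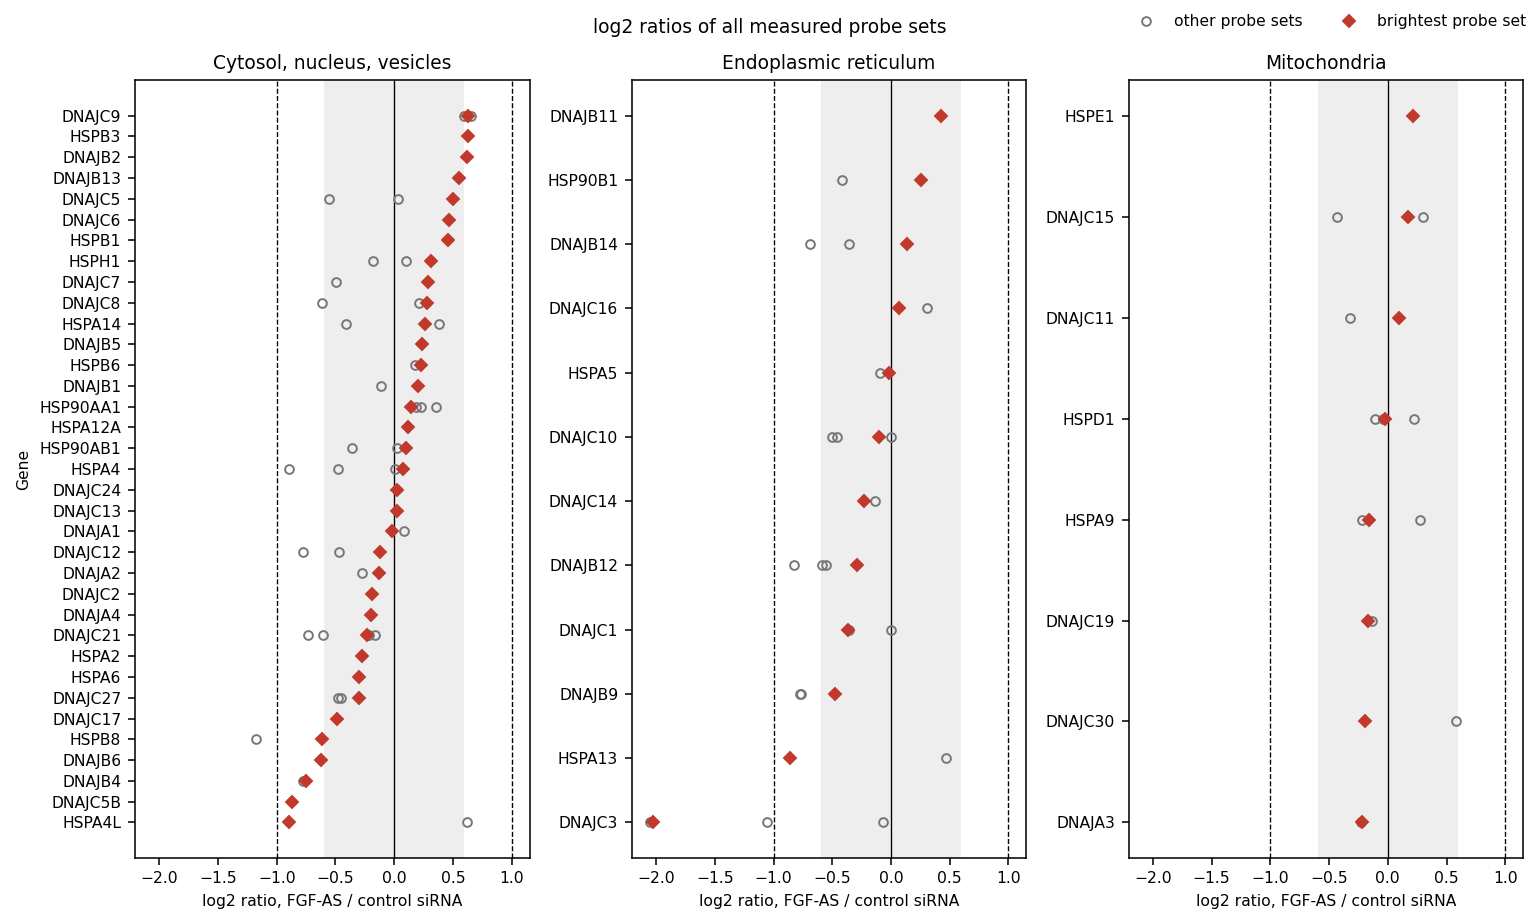
log2 ratio of FGF-AS siRNA over negative control siRNA for every measured probe set of the chaperone genes, in 3 panels by compartment, with the brightest probe set as a diamond and the others as open circles. Grey marks differences within 1.5-fold and dashed lines mark 2-fold: in the mitochondrial panel every point lies within 1.5-fold, and in the ER panel DNAJC3 has 3 points at or past 2-fold and 1 near 0.

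The ER stress element, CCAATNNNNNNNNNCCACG on both strands, is the motif through which the unfolded protein response raises ER chaperone genes. It was found in promoters of 2 of 65 chaperone genes (3.08%), HSPA5 and HSP90B1, against 0.092% of all 27305 genes with a promoter entry. Counted by promoter, 0.077% held it. These stretches are shown with the element in capitals, beside the whole DNAJC3 window, in which the element had no match and which also holds the start of DNAJC3-DT.
HSPA5, chr9:125241371-125241429, - strand: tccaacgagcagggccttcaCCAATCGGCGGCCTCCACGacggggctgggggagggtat
HSP90B1, chr12:103930196-103930359, + strand: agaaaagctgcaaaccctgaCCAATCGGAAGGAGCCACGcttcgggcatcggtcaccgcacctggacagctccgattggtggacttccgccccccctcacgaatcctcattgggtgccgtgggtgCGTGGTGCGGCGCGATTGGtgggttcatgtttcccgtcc
DNAJC3, chr13:95676889-95677188, + strand: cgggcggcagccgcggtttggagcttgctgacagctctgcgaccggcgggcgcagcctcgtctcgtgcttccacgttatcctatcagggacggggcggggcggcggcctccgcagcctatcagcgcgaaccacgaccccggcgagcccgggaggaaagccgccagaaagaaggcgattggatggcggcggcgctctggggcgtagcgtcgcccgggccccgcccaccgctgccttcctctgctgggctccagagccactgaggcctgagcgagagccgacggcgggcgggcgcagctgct

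The DNAJC3 window holds 1 CCAAT and 2 CCACG letter groups, at other spacings. Absence of a match says only that these letters are not in this window. Both genes that hold the element lay within 1.5-fold on their brightest probe sets.

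Mitochondrial chaperones lay close to 0 on their brightest probe sets. HSPD1, the HSP60 chaperonin, read 19092.4 with FGF-AS siRNA and 19442.1 with control siRNA (log2 ratio -0.03), near the top of the arrays' range, and its 3 other measured probe sets ran from -0.11 to 0.22. HSPE1, the HSP10 lid of the chamber, read 12085.5 and 10410.6 (0.22). HSPA9, the mitochondrial HSP70 that pulls in imported proteins, read 4954.7 and 5544.6 (-0.16), with -0.22 and 0.27 on the others. DNAJA3, its J-domain partner, was at -0.22 and -0.23 on its 2 probe sets.

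Of the J-proteins at the import motor, DNAJC19 read 551.5 with FGF-AS siRNA and 618.9 with control siRNA (-0.16) and DNAJC15 read 1574.4 and 1399.1 (0.17). DNAJC11, a component of the contact sites between the inner and outer membranes, stood at 0.09, with -0.32 on its other probe set. DNAJC30, which takes part in turnover of respiratory complex I, stood at -0.19, with 0.58 on a dim probe set. All 8 mitochondrial genes were measured and lay within 1.5-fold, with a median of -0.09 and 3 above 0. Among all measured genes 48.1% were above 0. The SD across the mitochondrial genes was 0.17, against 0.65 across the ER genes and 0.43 across the cytosolic genes. The ER genes ran from -2.03 for DNAJC3 to 0.42 for DNAJB11. Without DNAJC3, a choice made after seeing the data, the SD across the other 11 ER genes was 0.37. All 8 mitochondrial genes also reached the brighter minimum, where 88.5% of all genes lay within 1.5-fold. The SD across all genes there was 0.38, against 0.61 across the dimmer genes. These SDs describe 1 pair of arrays, and their difference was not tested.

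The remaining genes were few and dim. DNAJC4, DNAJC18 and DNAJC22, for which no compartment was assigned, stood at 0.48, 0.31 and 0.34 on their brightest probe sets, with other probe sets down to -0.59 for DNAJC4, -0.97 for DNAJC18 and -0.06 for DNAJC22. DNAJC9-AS1, antisense to DNAJC9, read 30.5 with FGF-AS siRNA and 28.5 with control siRNA (0.08). The 12 genes under the minimum were DNAJB7, DNAJB8, DNAJB8-AS1, DNAJC5G, DNAJC27-AS1, DNAJC28, HSPA1L, HSPA2-AS1, HSPA12B, HSPB2, HSPB7 and HSPB9. Several of these are known mainly from testis (DNAJB8, HSPA1L, HSPB9) or from heart and skeletal muscle (HSPB2, HSPB7). Just under the minimum lay HSPA12B with a mean signal of 21.2, and just above it HSPA6 with 24.9.

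Genes that work with these chaperones but carry other names were described beside them. The 12 measured of 14 HSP90 co-chaperones had a median log2 ratio of 0.07, with 8 above 0, and FKBP4, an immunophilin of steroid receptor complexes, was the 1 past 1.5-fold (1599.2 with FGF-AS siRNA, 1046.4 with control siRNA, 0.61, and 0.25 on its other probe set). The 12 regulators of HSP70 had a median of 0.13, with 9 above 0 and none past 1.5-fold, and BAG5, an HSP70 exchange factor, was furthest from 0 at 0.33, with -0.05 and 1.07 at the ends of its 3 probe sets. The 7 measured of 8 subunits of the cytosolic chaperonin CCT had a median of -0.01, and CCT8 was furthest at 0.42. The 9 measured of 11 genes of mitochondrial quality control had a median of 0.11, with PAM16 of the import motor furthest at 0.38. Of the 4 genes listed as heat shock factors, HSF1 and HSBP1 were measured, with a median of -0.27. Among all measured genes 48.1% were above 0 and 17.5% lay past 1.5-fold in either direction.

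Chaperones outside the naming rule had a median of 0.24 over 9 measured of 10 genes. SEC63, the J-protein of the ER translocon, read 899.8 with FGF-AS siRNA and 544.1 with control siRNA (0.72), and all 4 of its measured probe sets were higher, from 0.22 to 0.72. HYOU1, the large HSP70 of the ER and exchange factor of BiP, read 1209.2 and 787.4 (0.62). The mitochondrial J-protein HSCB was lower, at 300.2 and 422.4 (-0.48), as was TRAP1, the mitochondrial HSP90, at 2248.9 and 2830.3 (-0.33). The 13 ER folding genes had a median of 0.05, and MANF, a secreted ER stress protein, was the 1 past 1.5-fold, at 1841.1 and 1202.3 (0.61). On brightest probe sets, no measured gene of these 7 lists was past 2-fold and none was at least 1.5-fold lower. The background shares were 2.05% for 2-fold up, 2.72% for 2-fold down and 9.52% for 1.5-fold down (5.75% at the brighter minimum). Other measured probe sets of listed genes ran wider, from -1.34 for GRPEL2 to 1.07 for BAG5. Those of CANX and FKBP5 reached -0.86 and -0.84, and that of CDC37L1 reached 0.67. The difference between these lists and the chaperone family was not tested.

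**Figure D4:**
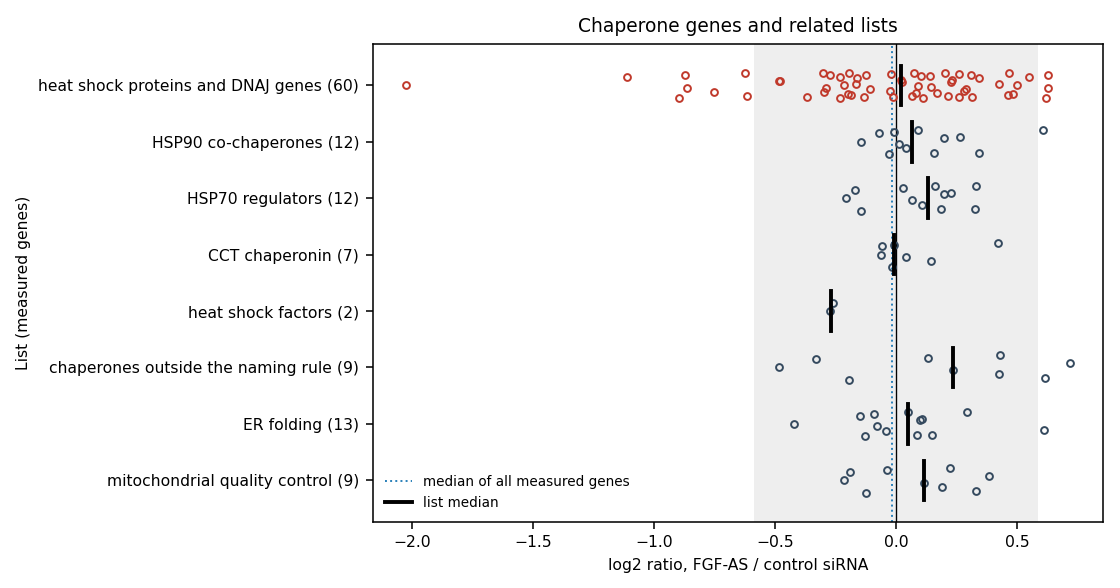
log2 ratio of FGF-AS siRNA over negative control siRNA for each measured gene (points, by brightest probe set) of the heat shock protein and DNAJ family, top row, and of 7 related lists, with list medians as black bars and the median of all measured genes as a dotted line. All list medians lie within the grey band of 1.5-fold, and the points below it all belong to the top row. Other probe sets of listed genes, from -1.34 (GRPEL2) to 1.07 (BAG5), are not drawn.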

How the data were processed

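The authors deposited linear intensities of probe sets, obtained with GCOS and MAS5, per the submitters' processing notes, without a stated version or scaling target, so how the 2 arrays were scaled to each other stays unknown. Detection calls were not used here. Of 54613 non-control probe sets, 41091 carried 1 symbol of the platform annotation, 1801 several and 11721 none, and gene identifiers matched RefSeq (GRCh38.p14) for all 171 chaperone probe sets. The 25th percentile of the signals served as offset (6.1), the minimum of 23.9 is the median of probe set means and 145.2 is their 75th percentile. No further scaling was applied. Members, lists and named-gene rule (members past 2-fold, the 3 furthest from 0 each way and 2 brightest per compartment, members with 3 or more measured probe sets or with opposed ones, the furthest of each list) were chosen with earlier results of these data known. Compartments came from textbook knowledge. Further members and HSF1, HSBP1, HSCB, TRAP1 and BAG3 were named after their values were seen. Computations used Python 3.11.15, numpy 2.4.6 and pandas 2.3.3, and the ratio procedure was tested on simulated data. Signals on an array carry no counting error, and the number of arrays limits the precision. Alternatives covered the offset, minimum, scaling and choice of probe set.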

Additional observations from a re-analysis of the deposited data

How the results depend on the processing

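No paired analysis was possible because each group holds 1 array. The family median of 0.02 moved to -0.11 without a minimum and to -0.088 with the mean over probe sets. The median over all genes, -0.016 in the main setting, was -0.020 and -0.059 in these settings. Counts of genes at least 2-fold lower (2) became 1 with the offset times 4, at the stricter minimum and under quantile normalization, and 8 without a minimum. The count at least 2-fold higher (0) became 1 without a minimum. Genes at least 1.5-fold higher (3) became 1 with the offset times 4 and at the stricter minimum and 5 under quantile normalization, and genes at least 1.5-fold lower (8) became 15 without a minimum. Outside the stricter minimum, no share of all genes past 1.5-fold is given for these settings. All genes at least 2-fold higher numbered 253 and lower 336, of 12352. These counts became 129 and 165 with the offset times 4, and 370 and 214 under quantile normalization. They were 1074 and 1270 of 19775 without a minimum, and 76 and 86 of 7719 at the stricter minimum. The mean over probe sets also moved the cytosolic median (0.07) to -0.041, that of HSP70 regulators (0.13) to -0.026 and that of heat shock factors (-0.27) to -0.46. When sets with the suffix _s_at or _x_at were left out, the medians were -0.12 for the cytosol, -0.014 for the ER (-0.17), -0.39 for heat shock factors and -0.036 for mitochondrial quality control (0.11), and DNAJC3 stood at -0.07, since its brightest probe set is then 225284_at. HSPA13 stood at 0.47 in that setting, on 202557_at, its only other probe set. Single ratios moved by more than the probe set SD of 0.49 for 6 of 60 genes with the mean over probe sets and for 6 of 49 without those probe sets, and for none of the genes under the other 6 settings. The sign of a gene's ratio changed for 13, 8, 3 and 1 genes with the mean over probe sets, without those sets, under median centring and under quantile normalization. Where a single ratio moved without the _s_at and _x_at sets, the gene was represented by another of its probe sets. Why probe sets of a gene differ, and the cause of the other moves, was not tested. With 1 array per group, differences below the disagreement between probe sets cannot be resolved.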
